A study of Homo sapiens with 5 samples.

Results

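The genes of the CD3 subunits CD3E, CD3D, CD3G and CD247 were described from peaks of H3K4me3, RUNX1 and a target labelled SMA4 in MOLT-4 cells. Members were the peaks that share at least 1 bp with either of 2 windows of the hg19 genome, set by position. The genes and windows were themselves chosen with earlier results of these data known. One window spans 100 kb of chromosome 11, from 118150000 to 118250000, and holds CD3E, CD3D and CD3G. The other spans 140 kb of chromosome 1, from 167380000 to 167520000, and was set around CD247. Together they held 26 of 51392 peaks on chromosomes 1 to 22 and X, namely 7 of the 13181 in the H3K4me3 list, 19 of the 36736 in the RUNX1 list and 0 of the 1475 in the SMA4 list.

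MOLT-4 is an established human line of T cell acute lymphoblastic leukaemia, grown in standard medium with no drug or gene change named in the labels. The cells were profiled by CUT&RUN, in which an antibody tethers a nuclease that releases the DNA around its target for sequencing. One library each was made for H3K4me3, RUNX1 and SMA4, and 2 IgG libraries, titled as input, were not analysed here. The labels do not spell out SMA4, so that name is kept as given. The lists hold positions without heights or read counts, so the read depth of each peak is unknown. SMA4 differed from the other lists in batch folder and peak-calling pipeline, per the file headers, and these cannot be told apart from the antibody. With 1 library per antibody no result has a replicate check and no difference was tested. RNA was not measured, so the T-ALL label could not be checked against expression.

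T cells recognise antigen with a receptor whose antigen-binding chains have very short tails and cannot signal alone. The CD3 chains carry the signal: CD3-epsilon, the product of CD3E, pairs with CD3-delta from CD3D or with CD3-gamma from CD3G, and CD247 encodes the zeta chain, which pairs with itself. Their tails bear tyrosine motifs that the kinase LCK phosphorylates and the kinase ZAP70 then binds. H3K4me3, trimethylation of a lysine of histone H3, is found at promoters in use or held ready for use. RUNX1 is a DNA-binding factor of blood cells that, with its partner CBFB, recognises the core sequence TGTGGT or TGCGGT.

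In RefSeq's GRCh38.p14 gene table, CD3E, CD3D and CD3G are consecutive protein-coding genes, with MPZL2 before them and UBE4A after them. CD247 has POU2F1 before it and CREG1 after it. That table served for names, order and strand only, since the peaks are in hg19. In hg19 the CD3E start was taken at 118175295, and CD3D and CD3G, which are transcribed away from each other, were taken to start near 118214000, a point given to the nearest kb and about 38.7 kb from the CD3E start. The CD247 start was not placed in hg19 here.

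The promoters of CD3D and CD247, the members matched in RefSeq's promoter table (2 of 4), are shown because H3K4me3 and RUNX1 peaks lay near the CD3D/CD3G starts and in the CD247 window. Each run is the 250 bases upstream of the gene's start in GRCh38.p14, read 5′ to 3′ on the gene's own strand, which is the minus strand for both. They are chr11:118342706-118342955 for CD3D and chr1:167518530-167518779 for CD247. Capitals mark the RUNX core.
CD3D: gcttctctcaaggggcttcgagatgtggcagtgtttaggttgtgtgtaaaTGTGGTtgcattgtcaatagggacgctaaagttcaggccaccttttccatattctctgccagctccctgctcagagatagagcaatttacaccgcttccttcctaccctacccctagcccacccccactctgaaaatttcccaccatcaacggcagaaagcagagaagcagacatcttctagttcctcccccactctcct
CD247: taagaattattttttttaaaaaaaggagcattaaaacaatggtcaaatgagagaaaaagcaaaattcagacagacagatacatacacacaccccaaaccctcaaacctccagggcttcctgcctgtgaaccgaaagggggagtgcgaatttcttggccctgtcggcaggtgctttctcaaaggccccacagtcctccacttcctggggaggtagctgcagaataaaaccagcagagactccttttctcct

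The letters TGTGGT and TGCGGT were searched on both strands. The CD3D promoter held 1 match, TGTGGT on the gene's strand, 200 to 195 bases upstream of the start. The CD247 promoter held 0 matches in this window. Of 35114 promoters of the same length, 16.3% held at least 1 match, 11.0% TGTGGT and 5.84% TGCGGT. A match describes the letters and is not a site of binding. Both promoters had fewer CpG dinucleotides than most, with 4 in CD3D and 3 in CD247 against a median of 11, and their GC content was 50.4% and 45.6% against a median of 58%. As few CpG or fewer were found in 34.3% of promoters for CD3D and 29.3% for CD247.

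At CD3E both lists had a peak over the gene's start, and the RUNX1 peak enclosed the marked interval. The H3K4me3 peak ran from 118175156 to 118176759 (1604 bp). It began 139 bp below the CD3E start and reached 1464 bp past it, towards CD3D. The RUNX1 peak ran from 118174808 to 118176937 (2130 bp), 348 bp beyond the mark on one side and 178 bp beyond it on the other. It was wider than 96.9% of the RUNX1 list, and the H3K4me3 peak was wider than 77.7% of its own. In the whole H3K4me3 list, 27.7% of peaks lay wholly inside 1 RUNX1 peak.

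CD3D and CD3G, which encode the alternative partners of CD3-epsilon, shared a block of H3K4me3 made of 3 peaks over 6448 bp, from 118210443 to 118216890. The widest ran from 118211131 to 118214220 (3090 bp) on the CD3D side, wider than 98.1% of the list. Its neighbour on the CD3G side ran from 118214413 to 118216890 (2478 bp), wider than 94.8%. These peaks were 192 bp apart, and 8.2% of gaps between neighbouring H3K4me3 peaks genome-wide were as narrow. The third, from 118210443 to 118210847, was 405 bp wide, lay 283 bp from the widest and was the only H3K4me3 peak of either window without RUNX1.

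RUNX1 peaks lay close to the divergent point, which is known only to the nearest kb. The starts of CD3D and CD3G were not placed separately, so whether either falls inside a RUNX1 peak cannot be said. One, from 118213077 to 118213903 (827 bp), was wholly within the CD3D-side mark and ended 317 bp before that mark did. Another, from 118214621 to 118215455 (835 bp), was wholly within the CD3G-side mark and began 208 bp inside its edge. The pair were 717 bp apart with no RUNX1 peak between them. In the whole list, 9.35% of RUNX1 peaks lay wholly inside 1 H3K4me3 peak. A further RUNX1 peak, from 118211048 to 118211830 (783 bp), sat at the far edge of the CD3D-side mark, with 700 bp inside it and 83 bp outside.

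**Figure D1:**
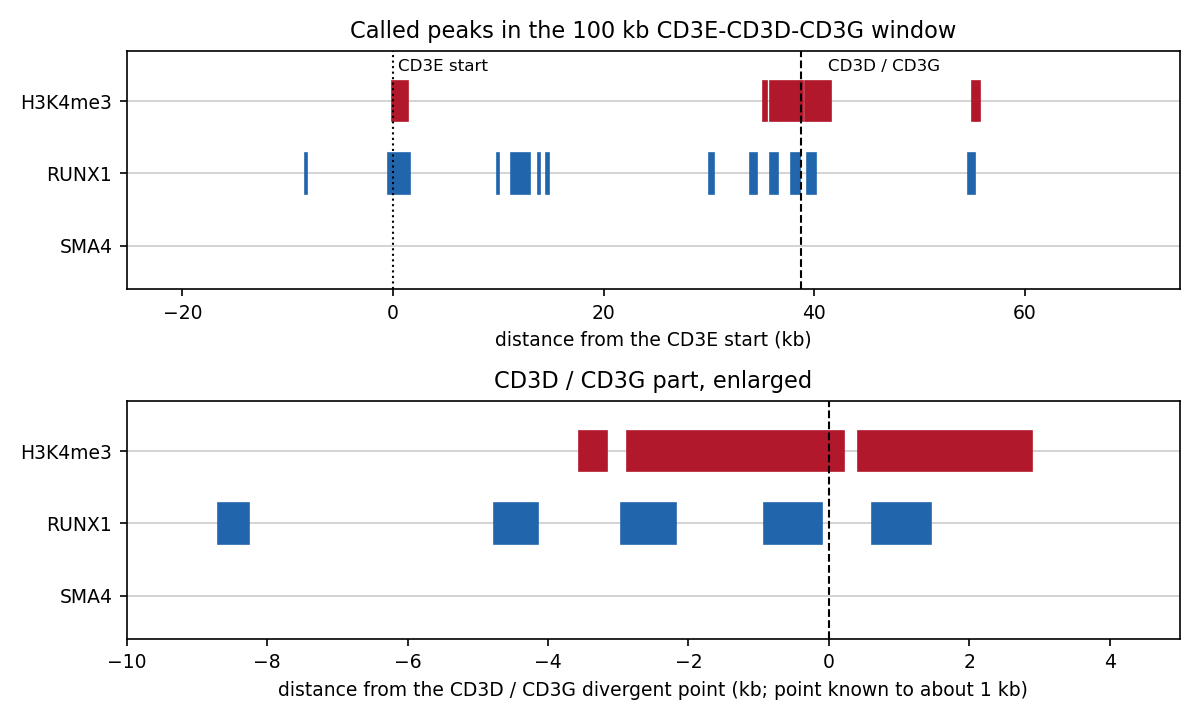
Called peaks of the 3 lists, drawn to scale as boxes, in the 100 kb window by distance from the CD3E start in kb (top) and around the CD3D/CD3G divergent point in kb (bottom); the dotted line is the CD3E start and the dashed line the divergent point. Of the 17 peaks, 5 are H3K4me3 and 12 are RUNX1, and the SMA4 row is empty.

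Beyond the promoters, RUNX1 peaks without H3K4me3 lay mainly between the starts of CD3E and CD3D. Of the 12 RUNX1 peaks in the 100 kb window, 5 had H3K4me3 (41.7%, against 32.2% of the whole list) and 7 had no H3K4me3. The widest of these ran from 118186451 to 118188332 (1882 bp), beginning 11.2 kb past the CD3E start, and was wider than 95.1% of the list. Narrow peaks stood close to it, at 118185137 to 118185357 (221 bp), 118189020 to 118189289 (270 bp) and 118189790 to 118190095 (306 bp). The first of them had the minimum width of the list.

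Nearer to CD3D, RUNX1 peaks without the mark ran from 118205294 to 118205738 (445 bp) and from 118209229 to 118209857 (629 bp). The remaining one lay on the other side of CD3E, from 118166917 to 118167138 (222 bp), starting 8378 bp below the gene's start and 1 bp above the list's minimum width. Past CD3G, in the direction of UBE4A, an H3K4me3 peak from 118230235 to 118231001 (767 bp) overlapped a RUNX1 peak from 118229872 to 118230551 (680 bp) by 317 bp. This H3K4me3 peak lay 13.3 kb past the end of the CD3G-side mark, and no gene was assigned to it. Both peaks are counted in the window, though whether they belong to a CD3 gene or to UBE4A was not determined.

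Joined across gaps of up to 10 kb, the RUNX1 peaks formed a region of 6 peaks over 23.2 kb at CD3E and a region of 5 peaks over 10.2 kb at CD3D and CD3G. A single peak, the one towards UBE4A, stood alone. Of 21979 such regions genome-wide, 2.43% held 6 or more peaks and 4.09% held 5 or more. The CD3E region held 1 H3K4me3 peak and the CD3D/CD3G region held 3.

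The CD247 window held fewer peaks over a longer stretch, with a single wide H3K4me3 peak. This peak ran from 167485891 to 167487983 (2093 bp), wider than 89.8% of the list. RUNX1 peaks overlapped it from 167486576 to 167487236 (661 bp), wholly inside the mark, and from 167487546 to 167488292 (747 bp), of which 438 bp were inside and 309 bp beyond it. These peaks were 309 bp apart. CD247 lies on the minus strand, so its start is at the higher-coordinate end of the gene. The wide peak also lay towards the higher end of the window, but its distance from the start was not measured.

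On the lower-coordinate side were 5 further RUNX1 peaks, the nearest of them 24.5 kb from those at the mark. The farthest, from 167423962 to 167426044 (2083 bp), was wider than 96.6% of the list and enclosed the other H3K4me3 peak, a narrow one from 167424598 to 167424882 (285 bp). The mark made up 13.7% of that RUNX1 peak. A second wide peak, from 167442174 to 167444137 (1964 bp), was wider than 95.8% of the list and had no H3K4me3. A peak of 276 bp stood 588 bp from it, at 167444726 to 167445001. The others ran from 167458289 to 167459286 (998 bp) and from 167461332 to 167462060 (729 bp), also without the mark. Joining across 10 kb gave 3 pairs and 1 single peak here, and 33.5% of regions genome-wide held 2 or more peaks.

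**Figure D2:**
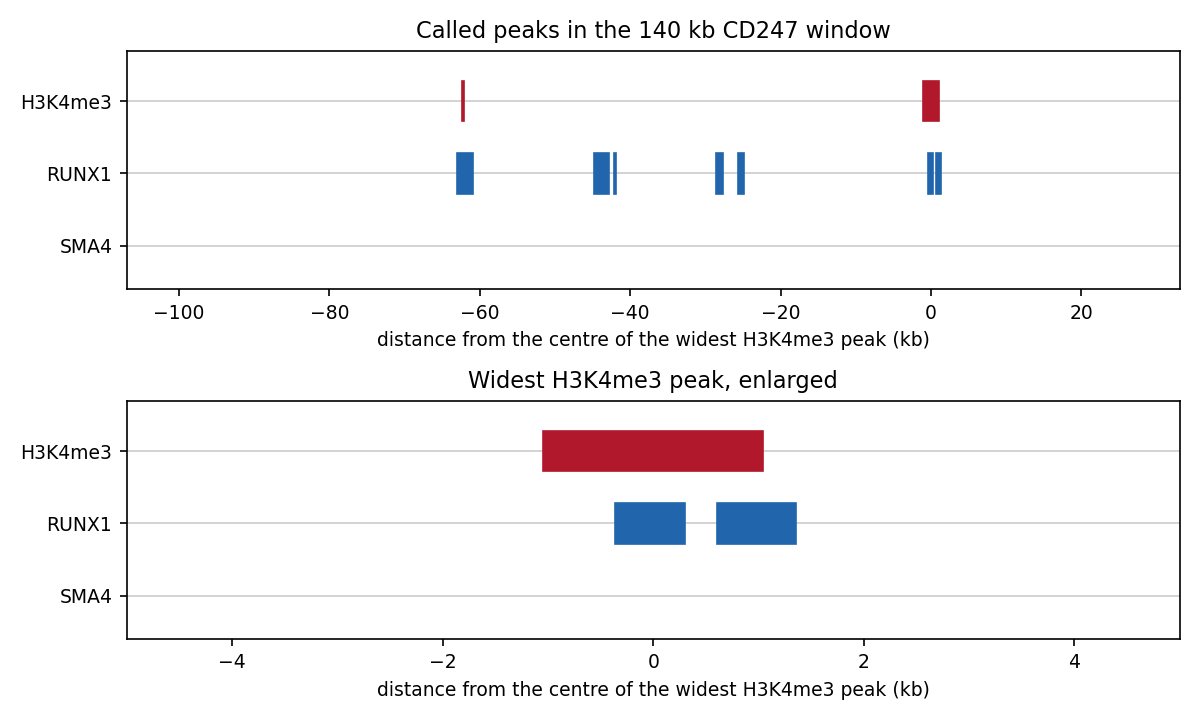
Called peaks of the 3 lists, drawn to scale as boxes, in the 140 kb window by distance in kb from the centre of its widest H3K4me3 peak (top), and around that peak (bottom). Of the 9 peaks, 2 are H3K4me3 and 7 are RUNX1, all at the wide peak or on its lower-coordinate side, and the SMA4 row is empty.

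Ordered by width, the H3K4me3 peaks at the members were the CD3D-side peak (3090 bp), the CD3G-side peak (2478 bp), the wide CD247 peak (2093 bp) and the CD3E peak (1604 bp). All 4 were above the upper quartile of the list, 1524 bp, and the other 3 peaks of the windows were below the list's median of 938 bp. Width is set by the peak caller as well as by the mark, and without a second library the order has no error. Of the 19 RUNX1 peaks at the members, 4 were in the widest 5% of the list (21.1%, against 5.0% of all RUNX1 peaks), a threshold chosen after the widths had been seen. Of these 4, 2 overlapped H3K4me3, at CD3E and in the CD247 window, and 2 did not. The narrowest of the 4, without the mark, was 1882 bp wide and barely above the threshold of 1875 bp. Among all RUNX1 peaks in the widest 5%, 68.5% overlapped the mark.

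**Figure D3:**
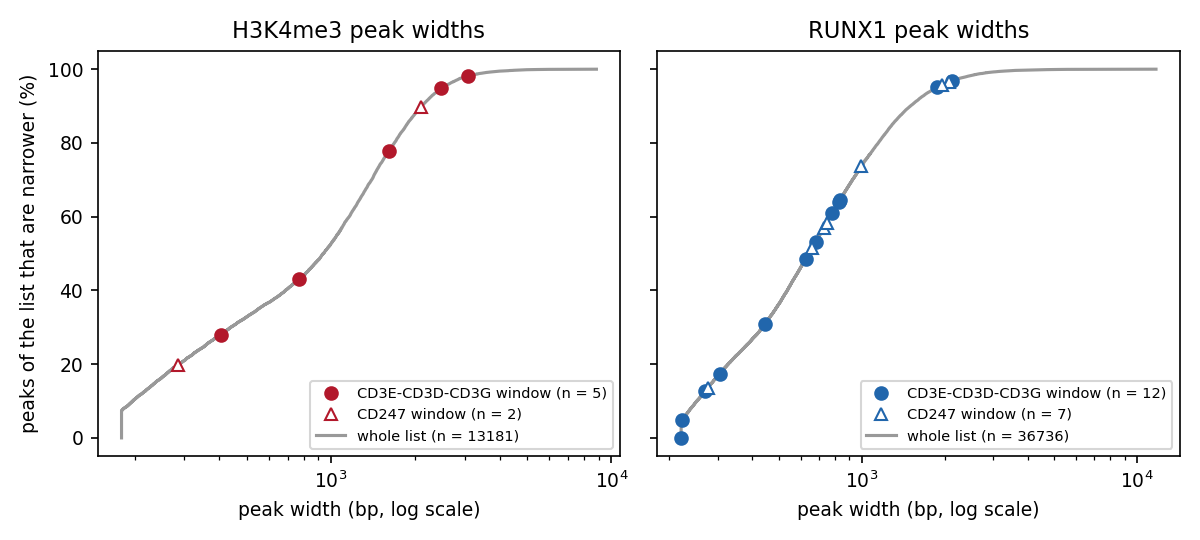
Width of each member peak in bp (log scale) against the percent of its own list that is narrower; filled circles are the 100 kb window, open triangles the 140 kb window and the grey line the whole list. Widths run from 285 to 3090 bp for 7 H3K4me3 peaks and from 221 to 2130 bp for 19 RUNX1 peaks.

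Overlap between the lists was counted next, with the peaks towards UBE4A included. In both windows together, 6 of 7 H3K4me3 peaks overlapped RUNX1 (85.7%, 95% Wilson interval 48.7 to 97.4%), against 88.1% of the whole list. Conversely, 8 of 19 RUNX1 peaks had H3K4me3 (42.1%, interval 23.1 to 63.7%), against 32.2% of the whole list. Both shares are near those of the whole lists, which lie inside the intervals. Only counting error enters these intervals, and peaks of one locus are not independent of each other. RUNX1 peaks with the mark had a median width of 827 bp and those without it 306 bp in the CD3E-CD3D-CD3G window (n = 5 and 7). In the CD247 window the order was the other way, at 747 and 864 bp (n = 3 and 4). In the whole list the medians were 1012 bp with the mark and 527 bp without it.

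Cover was also counted base by base. RUNX1 peaks covered 51.3% of H3K4me3 bases in the CD3E-CD3D-CD3G window and 58.2% in the CD247 window, against 71.4% over the whole list. RUNX1 covered 49.4% of the CD3D-side peak, 33.7% of the CD3G-side peak and 52.5% of the wide CD247 peak. Among all 1582 H3K4me3 peaks of at least 2000 bp, the median cover was 71.1% (quartiles 56.7 and 85.1%). Of these, 16.1% were covered less than the CD3D-side peak, 3.67% less than the CD3G-side peak and 20.1% less than the wide CD247 peak. That limit was chosen after the widths had been seen and leaves out the CD3E peak, which at 1604 bp was covered completely. Among the 3390 H3K4me3 peaks of at least 1500 bp, which include all 4 member peaks named here, the median was 72.1% (quartiles 57.1 and 86.5%), and 6.78% were covered completely. The CD3D-side and CD247 peaks each met 2 RUNX1 peaks, and 2 or more were met by 32.9% of peaks of at least 2000 bp and by 8.06% of all H3K4me3 peaks.

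SMA4 had no called peak in either window. The nearest to the CD3E-CD3D-CD3G window lay 2.99 Mb beyond it, on chromosome 11 from 121238287 to 121238473, and overlapped neither of the other lists. The nearest to the CD247 window lay 299870 bp below it, on chromosome 1 from 167079902 to 167080130, and overlapped RUNX1 but not H3K4me3. Across all tiles of the genome, a window without SMA4 is the usual case for this short list. At least 1 SMA4 peak was present in 3.96% of all 100 kb tiles of the genome and in 5.31% of 140 kb tiles. Tiles holding a peak of any list numbered 13191 at 100 kb, of which 1200 held SMA4, and 10810 at 140 kb, of which 1150 did. These shares are higher than those over all tiles, though the median number of SMA4 peaks was still 0 at either length. The share among tiles as rich in RUNX1 peaks is not given here. Likewise 0 of 19 member RUNX1 peaks and 0 of 7 member H3K4me3 peaks overlapped SMA4, against 2.56% and 2.39% of the whole lists. The absence of a call at these genes is thus no measure of how little SMA4 was there.

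Each window was then set beside all tiles of its own length, laid end to end along each chromosome. With 5 H3K4me3 peaks and 12 RUNX1 peaks, the CD3E-CD3D-CD3G window stood high in both lists. As many H3K4me3 peaks or more were found in 1.12% of 30337 tiles, and as many RUNX1 peaks or more in 0.6%. Among tiles holding a peak of any list these were 2.58% and 1.38%. With peaks within 1 kb merged in the window and in the tiles, the 5 H3K4me3 peaks became 3, a number reached in 3.03% of tiles, and the RUNX1 percent was 0.504%. Before merging, 5 or more H3K4me3 peaks and 12 or more RUNX1 peaks were found together in 0.148% of all 100 kb tiles. The window held 8.34 kb in H3K4me3 peaks, an amount reached in 0.185% of tiles, and 9.23 kb in RUNX1 peaks, reached in 0.959%. All these numbers include the peaks towards UBE4A. Narrowed by 20 kb on each side, the window held 4 H3K4me3 peaks, without the one towards UBE4A. Exactly 4 were found in 353 tiles of 100 kb, beside the 340 with 5 or more.

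The CD247 window, with 2 H3K4me3 and 7 RUNX1 peaks, was less far from the bulk. As many H3K4me3 peaks or more were found in 15.2% of 21673 tiles of 140 kb, and as many RUNX1 peaks or more in 6.63%. Among tiles holding a peak of any list these were 30.5% and 13.3%. Both the H3K4me3 and the RUNX1 number of the window were reached in 4.26% of all 140 kb tiles. Its 2.38 kb in H3K4me3 peaks were reached in 10.0% of tiles and its 7.46 kb in RUNX1 peaks in 3.18%. The windows were placed on chosen genes and the tiles were not, and many tiles hold no peak at all, so these percents describe rank and are not tests; the ranks also rest on windows chosen with results known. Among 100 kb tiles that hold an H3K4me3 peak, 2.03% had 12 or more RUNX1 peaks, and among such 140 kb tiles 18.5% had 7 or more, a comparison added after the data had been seen.

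**Figure D4:**
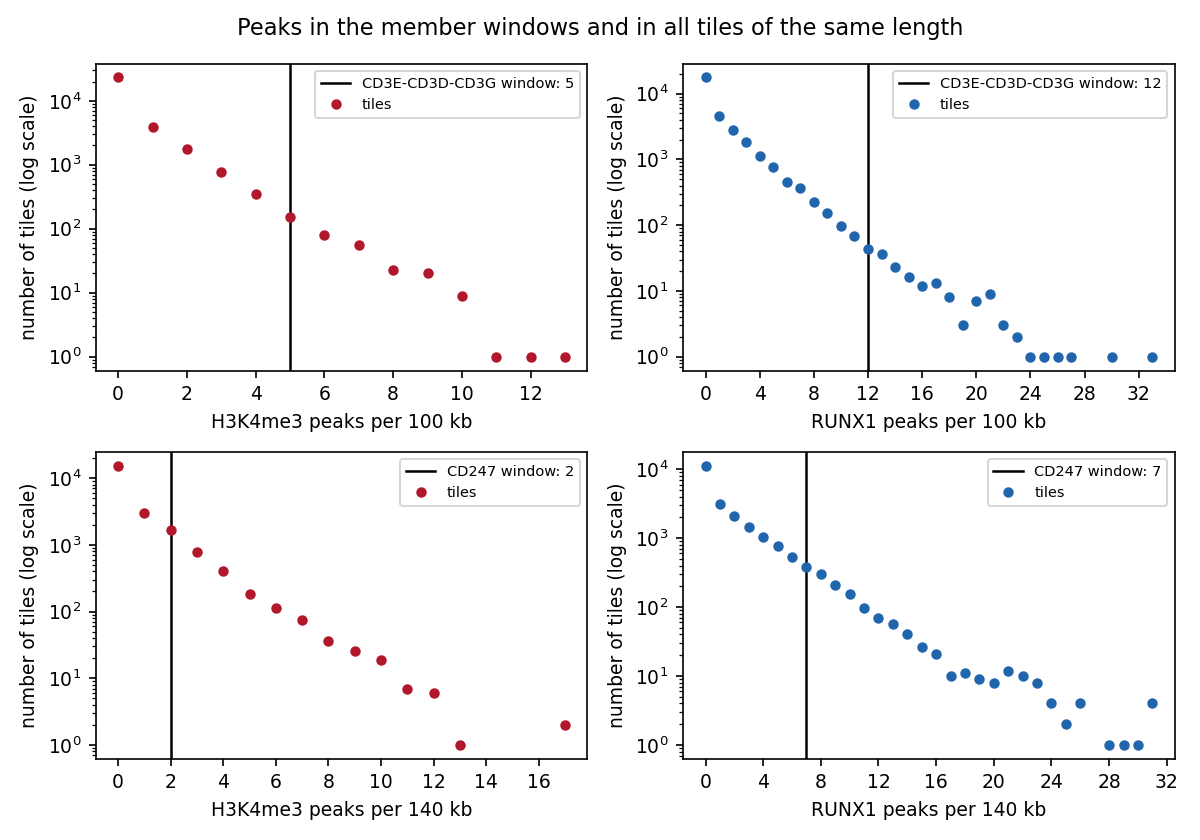
Number of tiles (log scale) by peaks per tile, for H3K4me3 (left) and RUNX1 (right), in tiles of 100 kb (top) and 140 kb (bottom); the vertical line is the member window. The 100 kb window, at 5 and 12 peaks, stands in the sparse right-hand part of both panels, and the 140 kb window, at 2 and 7 peaks, stands nearer to the bulk.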

How the data were processed

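Peak lists of 3 CUT&RUN libraries were used as deposited, each with 4 columns (chromosome, start, end and peak name) and no score. MACS2 made the peaks of H3K4me3 and RUNX1, per the file headers, and cutruntools those of SMA4, at a q-value threshold of 0.01. SEACR and the hg19 build appear, beside MACS2, in the submitters' processing notes. No source used here gives the aligner, the control or the threshold of the MACS2 peaks. Peaks were called per library, and the lists hold 13199, 36777 and 1479 peaks for H3K4me3, RUNX1 and SMA4.

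Peaks on chromosomes 1 to 22 and X were kept and starts written 1-based. Overlap meant at least 1 bp. Tiles ran from each chromosome's start to its highest peak end. All 26 peaks of the windows are described. The members, windows and motifs were chosen with earlier results of these data known. No hg19 sequence or annotation was used, so motifs within peaks and other genes of the receptor pathway were not analysed here. Overlap and tile functions were tested on simulated data. Python 3.11.15, numpy 2.4.6, scipy 1.17.1 and matplotlib 3.10.9 were used. Alternatives were wider, narrower and stricter settings, given at the end.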

Additional observations from a re-analysis of the deposited data

How the results depend on the processing

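Of 59 values recomputed under alternatives, 46 stayed within 1.5 times the reported count or inside the interval of the reported percent, and 13 did not. The 46 include SMA4 values of 0, which narrower windows, merging, leaving out peaks or stricter overlap could not have changed. Nor could overlap within 1 kb or wider windows, given the distance to the nearest SMA4 peak. Merging peaks of one list within 1 kb left 3 H3K4me3 peaks in the CD3E-CD3D-CD3G window, against 5 as reported, and gave a median RUNX1 width of 1717 bp in the CD247 window, against 747 bp. Leaving out peaks up to the lower quartile of width left 1 H3K4me3 peak in the CD247 window, against 2. Among tiles holding a peak of any list, the percent with as many peaks or more was 2.58% for H3K4me3 and 1.38% for RUNX1 at CD3E-CD3D-CD3G, and 30.5% for H3K4me3 and 13.3% for RUNX1 at CD247. Among tiles holding an H3K4me3 peak, an alternative added after the data were seen, it was 2.03% for RUNX1 at CD3E-CD3D-CD3G and 18.5% at CD247. Merging peaks within 1 kb in windows and tiles, also added afterwards, gave 3.03% for H3K4me3 and 0.504% for RUNX1 at CD3E-CD3D-CD3G, and 12.5% for H3K4me3 and 9.58% for RUNX1 at CD247. Both tile restrictions drop empty tiles by construction. SMA4 stayed at 0 peaks in the windows widened by 50 kb on each side, which follows from its nearest peak lying 299870 bp from a window. Depth is unknown, so a missing peak does not show a missing target. No paired analysis was possible because each antibody had 1 library.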
